A study of Mus musculus with 4 samples.

Results

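The Cytotoxic CD8 T cells described here are the nuclei to which the deposited metadata table gives the label Cytotoxic CD8, one of 17 labels made from the RNA of the same nuclei. There were 971 of them among 15621 labelled cells (6.22%), 504 of 7155 from the cecum and 467 of 8466 from the tumor. The study transplanted AKP organoids, colorectal tumor organoids of mouse that lack Apc and Trp53, into the cecal wall of mice, and T cells were sorted 4 weeks later from the tumor and from tumor-free cecum beside it. For sorted samples the methods state that mice were perfused. The strain of the mice, their number and whether animals were pooled are not given in the sources used here, and both tissues came from tumor-bearing mice, so neither group is a tumor-free control. Open chromatin was measured by ATAC in 1 library from each tissue, in which a transposase cuts accessible DNA and each pair of cuts gives a fragment.

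With 1 library per tissue no difference between conditions or labels could be tested. Values are fragments counted over a gene or region per 1000000 fragments of the label in that library (FPM), and ratios are log2 ratios of FPM, given with exact 95% intervals in square brackets that cover counting error only. A gene's window is its span with 5 kb on each side, so long genes collect more fragments than short ones and levels are compared between labels only. A gene was counted as higher or lower than in another label where its log2 ratio, with 1 FPM added to both sides, was at least 0.5 from 0 in the same direction in both libraries. Genes needed at least 50 fragments over both labels in each library.

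Cytotoxic CD8 T cells read peptides on MHC class I through a T cell receptor and the CD8 alpha-beta co-receptor, and kill by releasing perforin and granzymes and by Fas ligand. Their program is laid down by the T-box factors T-bet (Tbx21) and Eomes, while long exposure to antigen brings PD-1 (Pdcd1), other inhibitory receptors and the factor Tox. The intestinal wall also holds unconventional killers, among them CD8 alpha-alpha cells and gamma-delta T cells, some of which use natural killer receptors or the factor PLZF (Zbtb16). The Cytotoxic CD8 nuclei were therefore set against 3 other labels, PD1+ CD8, CD8aa and Cytotoxic gdT, and the tumor against the cecum.

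The Cytotoxic CD8 nuclei held 3388341 fragments in cecum and 3754731 in tumor, with medians of 4674 and 6739 per nucleus and ranges of 194 to 26731 and 199 to 26910. More than 3 times the median of all labelled cells of their library was held by 85 nuclei in cecum (16.9%) and 45 in tumor (9.64%). Fragments near gene ends made up 42.8% and 42.6% of the total, against 45.5% and 43.8% in CD8aa and 41.2% and 41.5% in PD1+ CD8. The 2 libraries held 66466111 and 96747563 fragments in all. They shared 84 labelled barcodes, of which 4 had the same label in both, and none of the 11 Cytotoxic CD8 barcodes labelled in both libraries had that label in both. Of all labelled cells, Cytotoxic CD8 made up 7.04% [6.46, 7.66] in cecum and 5.52% [5.04, 6.02] in tumor. Of the cells with 1 of the 4 CD8 labels it made up 32.3% [30.01, 34.7] of 1559 and 20.7% [19.0, 22.4] of 2257. PD1+ CD8 moved the other way, from 6.97% of labelled cells in cecum to 13.9% in tumor. The numbers of cells sorted per tissue were not used, so a lower share of one label and a higher number of another cannot be told apart.

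The label was described at 4 defining genes. Because the labels were made from the RNA of the same nuclei, openness at these genes is no independent check of the label. Cd8a, the CD8 alpha chain, stood at 95.3 FPM in cecum and 86.6 in tumor, second in both of the 16 labels ranked, which leave out PD1+ CD4 for its 14 nuclei in cecum, beside 95.5 and 90.0 in PD1+ CD8 and 4.00 and 4.31 in IL10- Treg. Cd8b1, the beta chain, stood at 102 and 89.0 FPM, against 13.5 and 14.5 in CD8aa. Tbx21, which encodes T-bet, stood at 157 and 156 FPM and was the highest of the 16 in both libraries, although CD8aa was close at 154 and 149 and the unranked PD1+ CD4 stood at 151 in tumor. Gzma, which encodes granzyme A, stood at 56.4 and 62.1 FPM, rank 3 in both, behind Cytotoxic gdT (106 and 109) and CD8aa (90.5 and 94.2). All 4 markers ranked between 1 and 3 of the 16 labels in both libraries, and none of them clearly set Cytotoxic CD8 apart from every other label.

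**Figure D1:**
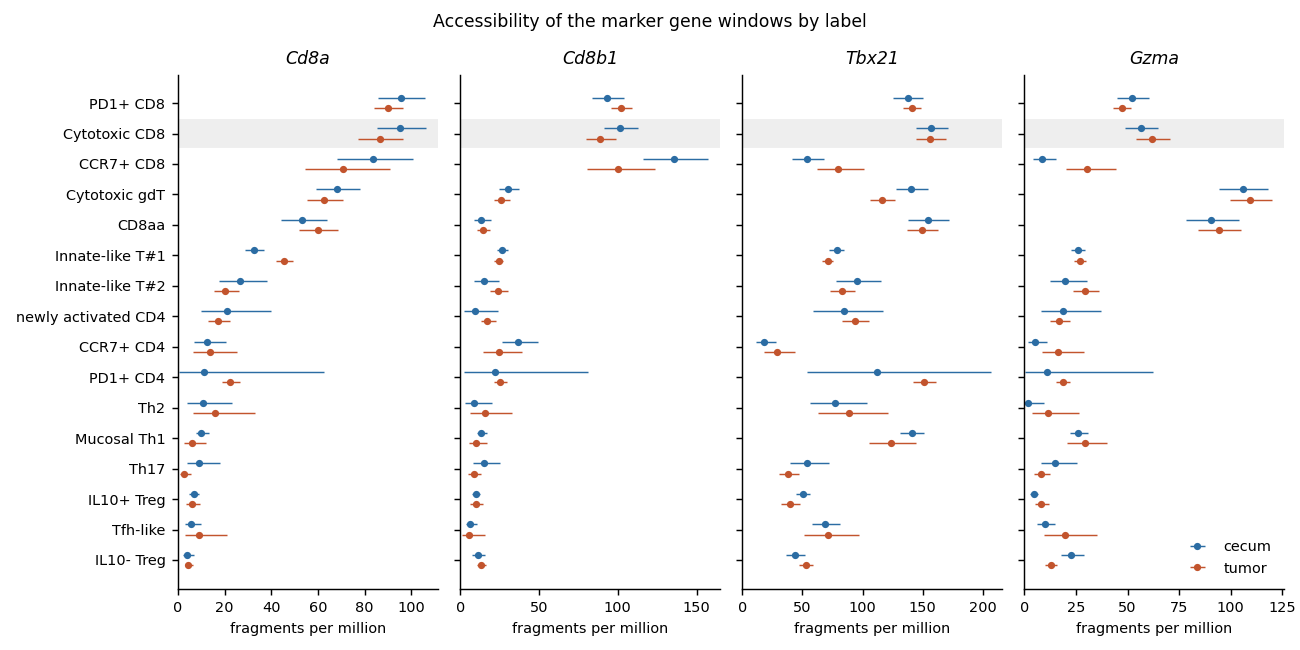
FPM (x axis) over the windows of Cd8a, Cd8b1, Tbx21 and Gzma in 16 of the 17 labels (rows), in cecum (blue) and tumor (orange), with exact 95% Poisson intervals for counting error and Cytotoxic CD8 shaded. The rows include PD1+ CD4, so they are not the same 16 labels as those ranked in the text. Cytotoxic CD8 lies beside PD1+ CD8 at Cd8a, at 95.3 and 95.5 FPM in cecum, and below Cytotoxic gdT and CD8aa at Gzma.

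Because the nuclei differ in depth, shares of nuclei with a fragment were taken after thinning each to 2000 fragments, which left out 141 Cytotoxic CD8 nuclei in cecum and 79 in tumor. A Cd8a fragment was then found in 17.1% and 18.3% of the nuclei (36.3% and 42.0% before thinning), against 0.316% and 1.14% in IL10- Treg, which should lack it. A Cd8b1 fragment was found in 17.9% and 15.0% (35.5% and 38.5% unthinned), against 2.85% and 2.45%. For Gzma the shares were 10.2% and 12.4% (24.4% and 31.7% unthinned), against 5.06% and 1.31%. For Tbx21 they were 27.5% and 25% (48.6% and 55.0% unthinned), against 10.4% and 8.99%. CD8aa was above Cytotoxic CD8 in cecum (28.9%, and 24.5% in tumor) and PD1+ CD4 above it in tumor (28.1%), each by less than the width of the intervals. Trdc, the constant gene of the delta receptor chain, was found in 1.10% and 1.29%. ATAC reads few fragments per gene in most nuclei, so a nucleus without one need not have closed chromatin. Markers of other cells were summed over their lists. B cell genes reached 155 and 148 FPM (rank 9 and 15 of the 16 labels), myeloid genes 113 and 121 (rank 12 in both), epithelial genes 188 and 180 (rank 3 and 5) and NK cell genes 72.3 and 65.8 (rank 4 and 6). Within each list the fragments were uneven. Myeloid genes ran from 2 in each library at Lyz2 to 178 and 191 at Itgam, and epithelial genes from 2 and 5 at Krt20 to 431 and 455 at Cdh1, with Epcam at 42 and 48. NK cell genes ran from 2 and 0 at Ncr1, the 1 gene of these 4 lists at 0, to 150 and 156 at Eomes, which T cells also use, and B cell genes from 10 and 8 at Ms4a1 to 272 and 326 at Cd79a. The part of other cells in the results was not tested.

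Promoters were looked at through the 250 bases before the start site, since the comparisons below turn on several of them. The 6 shown are of genes whose fragments within 500 bp of a start site differed from PD1+ CD8 (Csf2, Cd244a and Nrp1) or CD8aa (Cd5, Pdcd1 and Fcer1g). That window is wider than the bases shown. Sequences are from RefSeq, build GRCm38.p6, and run 5′ to 3′ along the gene's strand, with capitals for a match to 1 of 8 motifs searched on both strands. Searched were T-box as AGGTGTGA (present in 1.17% of all 17492 coding promoters of that length), RUNX as AACCACA (present in 4.50%), AP-1 as TGANTCA (present in 7.19%) and TCF as CTTTGAA (present in 4.81%). The others were NR4A as AAAGGTCA (present in 1.39%), IRF as GAAANTGAA (present in 1.93%), GATA as AGATAA (present in 10.3%) and ETS as CCGGAAG (present in 10.2%). A match is a description of letters and no evidence of binding.
Csf2, chr11:54249900-54250149, minus strand: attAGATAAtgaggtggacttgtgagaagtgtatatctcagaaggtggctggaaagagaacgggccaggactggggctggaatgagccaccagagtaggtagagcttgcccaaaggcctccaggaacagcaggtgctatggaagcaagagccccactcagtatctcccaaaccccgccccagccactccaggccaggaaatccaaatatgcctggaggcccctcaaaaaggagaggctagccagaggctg
Cd244a, chr1:171558943-171559192, plus strand: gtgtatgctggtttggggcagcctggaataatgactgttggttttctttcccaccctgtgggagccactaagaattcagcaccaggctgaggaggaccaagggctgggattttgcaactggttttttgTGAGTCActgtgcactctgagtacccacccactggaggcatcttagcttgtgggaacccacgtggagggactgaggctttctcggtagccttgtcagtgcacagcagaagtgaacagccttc
Nrp1, chr8:128358823-128359072, plus strand: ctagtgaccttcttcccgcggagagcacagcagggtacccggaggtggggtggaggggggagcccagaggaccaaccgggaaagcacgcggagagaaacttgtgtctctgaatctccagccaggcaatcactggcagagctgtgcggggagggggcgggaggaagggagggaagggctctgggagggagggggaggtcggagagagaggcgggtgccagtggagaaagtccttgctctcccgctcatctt
Cd5, chr19:10738975-10739224, minus strand: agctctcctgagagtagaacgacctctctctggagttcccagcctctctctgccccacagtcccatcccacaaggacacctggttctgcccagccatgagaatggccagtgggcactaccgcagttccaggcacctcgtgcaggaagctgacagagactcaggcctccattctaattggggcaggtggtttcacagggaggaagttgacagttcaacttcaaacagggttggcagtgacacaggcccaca
Pdcd1, chr1:94052554-94052803, minus strand: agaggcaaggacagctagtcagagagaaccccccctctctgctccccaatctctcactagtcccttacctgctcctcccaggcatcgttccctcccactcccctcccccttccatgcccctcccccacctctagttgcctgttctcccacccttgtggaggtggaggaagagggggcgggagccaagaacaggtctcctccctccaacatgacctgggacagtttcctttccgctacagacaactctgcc
Fcer1g, chr1:171234350-171234599, minus strand: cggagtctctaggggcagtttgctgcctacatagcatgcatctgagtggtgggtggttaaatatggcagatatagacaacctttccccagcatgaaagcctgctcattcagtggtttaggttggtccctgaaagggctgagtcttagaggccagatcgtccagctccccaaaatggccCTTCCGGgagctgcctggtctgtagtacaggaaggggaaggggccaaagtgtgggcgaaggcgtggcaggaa
The Csf2 promoter held a GATA match at -247 to -242 from the start, Cd244a an AP-1 match at -122 to -116 and Fcer1g an ETS match, on the other strand, at -72 to -66. Nrp1, Cd5 and Pdcd1 held none of the 8.

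The first comparison asked how Cytotoxic CD8 differs from PD1+ CD8, a second label with an open Cd8b1. Cytotoxic CD8 was more open at the interleukin-7 receptor gene Il7r, the GM-CSF gene Csf2 and the signalling receptor gene Cd244a. It was less open at Eomes and at the semaphorin receptor genes Plxnc1 and Nrp1. Of 14446 genes that reached the minimum, 149 were higher in Cytotoxic CD8 in both libraries (1.03%) and 360 lower (2.49%), and the median log2 ratio over all of them was 0.01 in each library. A window within 1 kb of the gene ends gave 76 and 122, a minimum of 200 fragments 73 and 133, and no minimum 271 and 674. The sign of the ratio was the same in both libraries for 64.0% of genes. Of the killing genes granzyme M alone was past the threshold.

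**Figure D2:**
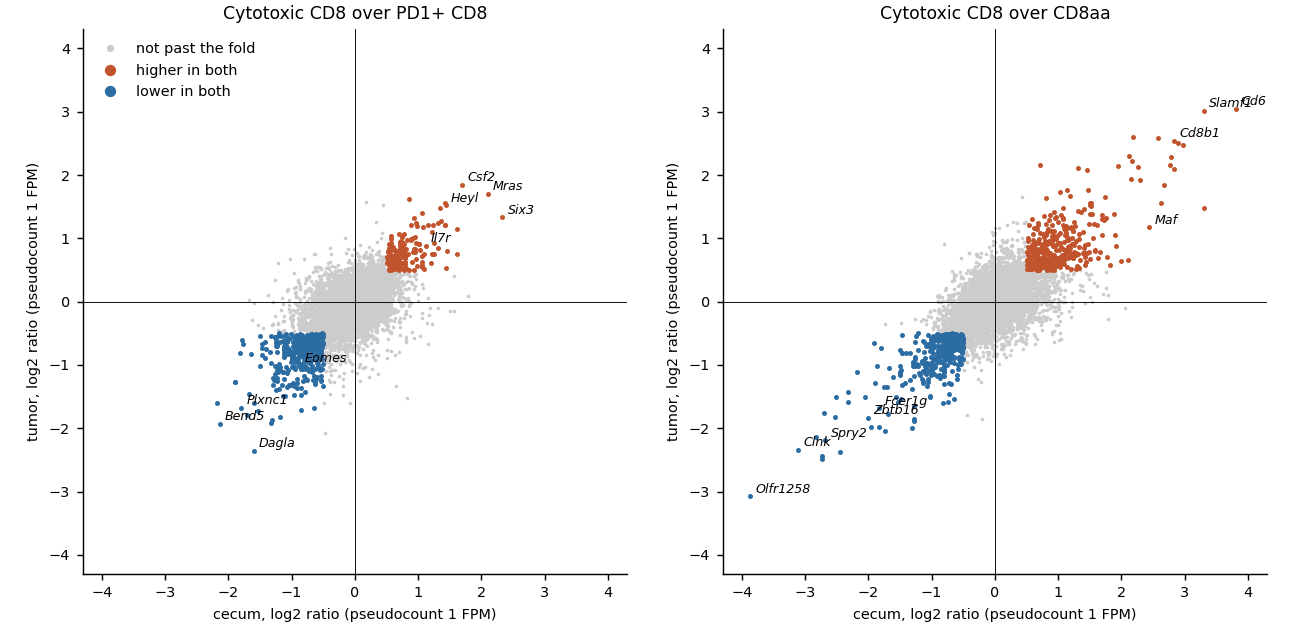
Each point is a gene, placed by its log2 ratio with 1 FPM added in cecum (x axis) and the tumor (y axis), for Cytotoxic CD8 over PD1+ CD8 (left) and over CD8aa (right). Orange and blue points are past 0.5 in the same direction in both libraries, 149 and 360 genes on the left and 374 and 339 on the right, and the points over CD8aa reach further from 0.

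Co-receptor and receptor chain genes did not separate Cytotoxic CD8 from PD1+ CD8. None of the 8 was past the threshold, with medians of 0.08 and 0.05. Cd8a had 323 fragments in Cytotoxic CD8 and 344 in PD1+ CD8 in cecum, a log2 ratio of -0.00 [-0.23, 0.22], and 325 and 823 in tumor, -0.06 [-0.25, 0.13].

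Among 12 genes of cytotoxic granules and killing, 1 was past the threshold, with list medians of -0.00 and -0.09. That gene was Gzmm, granzyme M, at 31.9 FPM in Cytotoxic CD8 and 47.2 in PD1+ CD8 in cecum and 30.9 and 49.2 in tumor, log2 ratios of -0.57 [-0.93, -0.21] and -0.67 [-0.98, -0.37]. Gzma lay at 0.11 [-0.19, 0.41] in cecum and 0.39 [0.16, 0.63] in tumor. Gzmb, granzyme B, changed sign between the libraries, at 0.17 [-0.14, 0.49] and -0.30 [-0.58, -0.02]. Prf1, perforin, was lower in Cytotoxic CD8 by less than the threshold, at 55.2 against 77.2 FPM in cecum and 61.0 against 81.4 in tumor, with log2 ratios of -0.48 [-0.76, -0.21] and -0.42 [-0.64, -0.20]. No perforin or granzyme window was thus past the threshold on the higher side in Cytotoxic CD8. None of the 6 effector cytokine and chemokine genes was past the threshold, and Ifng stood at -0.10 [-0.42, 0.22] and -0.14 [-0.39, 0.11].

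Of 9 effector transcription factor genes, Eomes alone was past the threshold, and the list medians were 0.16 and 0.11. Eomes, on chromosome 9 from 118478186 to 118486132, had 150 fragments in Cytotoxic CD8 and 297 in PD1+ CD8 in cecum (44.3 and 82.5 FPM), and 156 and 775 in tumor (41.5 and 84.7 FPM). The log2 ratios were -0.90 [-1.19, -0.61] and -1.03 [-1.29, -0.78]. Within 50 kb of the gene, 11 of 16 tiles of 500 bp were lower in Cytotoxic CD8 in both libraries and 2 higher, by sign alone. The share of all tiles with those signs was not computed. By at least 1 on the log2 scale 4 of the 16 were lower, as were 735 of all 74335 tested tiles. The tile at chr9:118479001-118479500, inside the gene, had 16 against 44 fragments in cecum and 19 against 128 in tumor, -1.37 [-2.30, -0.52] and -1.47 [-2.25, -0.77]. A further tile, centred 61.4 kb below the gene's lowest coordinate and chosen after its values were seen, had 5 fragments against 30 in cecum (1.48 and 8.33 FPM) and 9 against 96 in tumor (2.40 and 10.5 FPM). Tbx21, the other T-box gene of the pair, stood at 0.19 [0.01, 0.37] and 0.15 [0.01, 0.29], slightly higher and below the threshold. Zeb2, a repressor that acts in terminal effector cells, stood at 0.55 [0.36, 0.74] and 0.33 [0.18, 0.47].

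**Figure D3:**
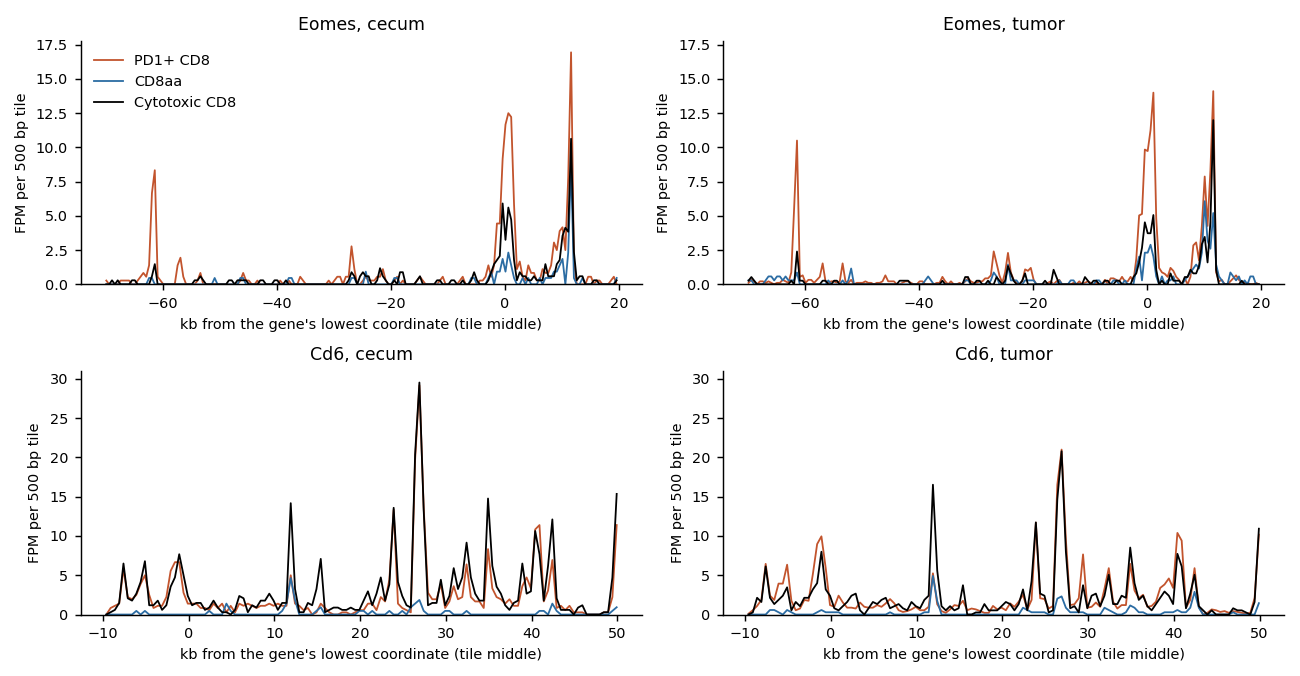
FPM in tiles of 500 bp (y axis) by distance in kb of the tile's middle from the gene's lowest coordinate (x axis), at Eomes (top) and Cd6 (bottom) in cecum (left) and tumor (right), for Cytotoxic CD8 (black), PD1+ CD8 (orange) and CD8aa (blue). At Eomes the PD1+ CD8 line is higher at the gene and at 61.4 kb below it (10.5 FPM in tumor, against 2.40 in Cytotoxic CD8), and at Cd6 the CD8aa line is near 0 over most of the gene.

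Pdcd1, for which PD1+ CD8 is named, was open in both labels. It had 314 fragments in Cytotoxic CD8 and 596 in PD1+ CD8 in cecum (92.7 and 165 FPM), and 499 and 1649 in tumor (133 and 180 FPM). The log2 ratio was -0.84 [-1.04, -0.64] in cecum and -0.44 [-0.59, -0.29] in tumor, so Pdcd1 was not past the threshold in tumor. Within 50 kb, 18 of 22 tiles were lower in Cytotoxic CD8 in both libraries by sign alone and 0 were higher. The share of all tiles lower by sign was not computed. Of the 22, 1 was lower by at least 1 on the log2 scale. The labels were made from the RNA of these nuclei, so a difference at the gene that names a label is no independent check of it. Of the 15 inhibitory receptor and exhaustion genes, with medians of -0.16 and -0.04, 1 was past the threshold. Cd244a, the receptor 2B4 of natural killer and CD8 T cells, was higher in Cytotoxic CD8, at 55.8 against 35.8 FPM and 55.9 against 33.4, 0.64 [0.31, 0.97] and 0.74 [0.48, 0.9998]. Tox was lower without passing in cecum, at 180 against 253 FPM and 182 against 282, -0.50 [-0.65, -0.35] and -0.63 [-0.76, -0.51]. Havcr2, the inhibitory receptor TIM-3, lay on the other side, at 0.47 [0.22, 0.73] and 0.33 [0.15, 0.52], and Entpd1, the ectonucleotidase CD39, at -0.55 [-0.74, -0.36] and -0.37 [-0.52, -0.23]. The inhibitory genes thus did not lie on 1 side.

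Several genes of naive and memory cells and of circulation were less open in Cytotoxic CD8. Of 12 naive and memory genes 3 were lower and 1 higher, with medians of -0.33 and -0.36, and of 10 homing genes 3 were lower and 0 higher, with medians of -0.29 and -0.32. Ccr7, the receptor that leads cells to lymph nodes, was at -0.72 [-0.98, -0.47] and -0.60 [-0.83, -0.38]. S1pr1, the receptor for exit from tissue, was at -0.58 [-0.95, -0.22] and -0.88 [-1.19, -0.58]. Slamf6, found on progenitor cells, and the integrin gene Itgb1 were also lower, Slamf6 by -0.86 [-1.22, -0.52] and -0.63 [-0.93, -0.34]. The exception was Il7r, the receptor for the survival cytokine interleukin-7, with 151 fragments against 72 in cecum (44.6 and 19.99 FPM) and 176 against 229 in tumor (46.9 and 25.03 FPM). Its log2 ratios were 1.16 [0.74, 1.58] and 0.91 [0.61, 1.19], and it was also the 1 gene past the threshold of the 12 cytokine receptor genes, whose medians were 0.18 and 0.13. None of the 9 tissue residency genes passed, with medians of 0.27 and 0.23. The residency genes Ahr, at 0.45 [0.17, 0.74] and 0.52 [0.30, 0.75], and Rgs1, at 0.37 [0.10, 0.65] and 0.60 [0.37, 0.83], were among those nearest to it.

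The innate-like list had 1 gene higher (Cd244a) and 2 lower of 9, with medians of -0.10 and 0.36. Zbtb16 was at -0.59 [-0.85, -0.32] and -0.53 [-0.75, -0.31] and Itgax, an integrin of myeloid and activated T cells, at -0.58 [-0.94, -0.23] and -0.69 [-1.02, -0.37], although within 1 kb of its ends Itgax was at 0.21 in cecum. Of 8 genes of gamma-delta and type 17 cells, 5 reached the minimum and Maf was lower, at -0.68 [-0.997, -0.36] and -0.63 [-0.90, -0.36], with list medians of 0.12 and 0.11. Of 11 killer lectin receptor genes, 7 reached the minimum and none passed, with medians of 0.12 and -0.10.

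Genes were ordered by the smaller of their ratios in the 2 libraries, taken with 1 FPM added, and by that order the highest was Mras, a small GTPase of the Ras family on chromosome 9 from 99385420 to 99437700, with 164 fragments against 38 in cecum (48.4 and 10.5 FPM) and 158 against 112 in tumor (42.1 and 12.2 FPM). Its log2 ratios were 2.20 [1.68, 2.75] and 1.78 [1.42, 2.14], and its fragments came from 96 nuclei in cecum and 91 in tumor. Csf2, GM-CSF, had 44 fragments against 12 and 60 against 34 (13.0 and 3.33 FPM, and 16.0 and 3.72 FPM), 1.96 [1.02, 3.02] and 2.10 [1.47, 2.76]. Heyl, a target of Notch, was at 1.51 [0.99, 2.05] and 1.61 [1.21, 2.01], although its window overlaps that of Nt5c1a. The homeobox gene Six3 was at 2.62 [1.76, 3.59] and 1.52 [0.88, 2.18]. The remaining 4 of the 8 highest were 1700113H08Rik, Bean1, Fam124b and Fbxl21, and the windows of Bean1 and Fbxl21 overlap those of Tk2 and Lect2.

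On the lower side, Plxnc1, a plexin that binds semaphorin 7A, had the most fragments, 191 against 714 in cecum (56.4 and 198 FPM) and 219 against 1733 in tumor (58.3 and 189 FPM). Its log2 ratios were -1.81 [-2.05, -1.58] and -1.70 [-1.91, -1.50]. Nrp1, neuropilin 1, was at 17.7 against 55.2 FPM and 27.2 against 84.4, -1.64 [-2.08, -1.22] and -1.64 [-1.95, -1.34]. Fcgr2b, the inhibitory receptor for IgG, had 13 fragments against 47 and 15 against 143, -1.77 [-2.78, -0.86] and -1.97 [-2.84, -1.20]. Bmp6, a ligand of the TGF-beta family, was at -1.78 [-2.32, -1.27] and -1.89 [-2.39, -1.42]. Dagla, a lipase that makes an endocannabinoid, was at -1.64 [-2.03, -1.27] and -2.41 [-2.79, -2.06], with a window that overlaps that of Myrf. Bend5, Steap3 and Gtf2a1l made up the rest of the 8 lowest, Bend5 at -2.40 [-3.38, -1.54] and -2.14 [-2.92, -1.44]. The windows of Plxnc1, Bmp6, Bend5 and Gtf2a1l also overlap that of a neighbouring gene.

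Within 500 bp of the start site, 83 of 9282 promoters were higher than in PD1+ CD8 (0.894%) and 177 lower (1.91%), with medians of 0.05 and 0.04. Fragments at a start site are also counted in the gene's window, so a promoter and its gene are not separate measurements. The promoters of Csf2 and Nrp1 went the way of their genes. Csf2 had 32 fragments against 7 and 41 against 15, 2.28 [1.08, 3.71] and 2.74 [1.85, 3.70], and Nrp1 had 4 against 28 and 7 against 86, -2.72 [-4.69, -1.20] and -2.33 [-3.69, -1.23]. Cd244a had 42 against 20 and 64 against 56, 1.16 [0.36, 2.01] and 1.48 [0.94, 2.02]. The Pdcd1 promoter, unlike its whole window, was past the threshold in both libraries, with 25 fragments against 54 and 38 against 170, -1.02 [-1.77, -0.31] and -0.88 [-1.42, -0.36]. Eomes was lower at its promoter too, at -1.10 [-1.73, -0.49] and -1.39 [-2.04, -0.80], and so was Klrc1, the NKG2A gene, at -2.28 [-3.83, -0.998] and -1.32 [-2.25, -0.49]. The promoter of Hopx, a factor of effector cells, was higher at 0.66 [0.19, 1.14] and 0.57 [0.19, 0.95], and that of Havcr2 at 1.12 [0.34, 1.95] and 0.58 [0.05, 1.09].

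The second comparison set Cytotoxic CD8 against CD8aa, the label named for cells that carry CD8 alpha without beta. A difference at Cd8b1 is therefore no independent check of the labels. Cytotoxic CD8 was more open at Cd8b1, at the genes of the conventional T cell receptors Cd6 and Slamf1, at Maf and at 4 of 12 naive and memory genes. It was less open at 4 of the 8 killer lectin receptor genes that reached the minimum, at Fcer1g and Zbtb16, which mark innate-like T cells, and at Gzma. Of 13634 genes, 374 were higher (2.74%) and 339 lower (2.49%), with medians over all genes of -0.02 and -0.01. When libraries were scaled by their fragments near gene ends, which were a larger share in CD8aa, the split was 457 higher and 255 lower. A window within 1 kb of the gene ends gave 103 and 272, a minimum of 200 fragments 116 and 157, and no minimum 977 and 539. The sign was the same in both libraries for 65.7% of genes.

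Of the 8 co-receptor and receptor chain genes 3 were higher and 0 lower, with medians of 0.09 and 0.13. Cd8b1, on chromosome 6 from 71322788 to 71337492, had 344 fragments against 29 in cecum and 334 against 50 in tumor, 2.92 [2.37, 3.52] and 2.62 [2.19, 3.08]. Cd8a was nearer, at 95.3 against 53.4 FPM and 86.6 against 59.8, 0.84 [0.53, 1.16] and 0.53 [0.28, 0.79]. Within 1 kb of the gene ends the Cd8a ratio in tumor was -0.32, so its direction there depends on the window. Cd4, the co-receptor for MHC class II, was at 0.77 [0.35, 1.21] and 0.64 [0.29, 1.01]. Around Cd8a 13 of 19 tiles were higher in both libraries and 4 lower, by sign alone. The share of all tiles with those signs was not computed. By at least 1 on the log2 scale 4 of the 19 were higher, as were 668 of all 60420 tested tiles. The tile at chr6:71381501-71382000, which lies 2.58 kb outside the gene, had 62 fragments against 8 and 96 against 21, 2.30 [1.23, 3.58] and 2.07 [1.38, 2.83].

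Killing genes were split. Of 12, 11 reached the minimum, 2 were higher and 1 lower, with medians of 0.01 and -0.08. Gzma had 191 fragments against 195 in cecum (56.4 and 90.5 FPM) and 233 against 326 in tumor (62.1 and 94.2 FPM), -0.68 [-0.98, -0.39] and -0.60 [-0.85, -0.36]. Gzmk, the granzyme of memory-like CD8 cells, was higher at 0.63 [0.33, 0.94] and 0.57 [0.31, 0.84], and Gzmm at 1.01 [0.45, 1.62] and 1.42 [0.89, 1.97]. Prf1 lay at 0.19 [-0.16, 0.55] and 0.06 [-0.22, 0.34] and Gzmb at -0.04 [-0.39, 0.32] and -0.46 [-0.79, -0.13]. None of the 6 cytokine and chemokine genes passed, with medians of -0.07 and -0.26. Of the 9 effector transcription factor genes, with medians of 0.03 and 0.07, Eomes was higher, at 44.3 against 22.7 FPM in cecum and 41.5 against 28.9 in tumor, 0.96 [0.49, 1.46] and 0.52 [0.15, 0.90]. Eomes in Cytotoxic CD8 therefore lay between the levels of CD8aa and PD1+ CD8 in both libraries, whereas Tbx21 lay within 0.2 of CD8aa, at 0.03 [-0.17, 0.23] and 0.07 [-0.11, 0.24].

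Of 11 killer lectin receptor genes 8 reached the minimum, 4 were lower and 0 higher, with medians of -0.78 and -0.70. Klrd1, the CD94 gene, was at 34.5 against 70.1 FPM and 33.6 against 72.5, -1.02 [-1.38, -0.66] and -1.11 [-1.43, -0.80]. Klrk1, the NKG2D gene, was at -1.19 [-1.67, -0.72] and -1.005 [-1.44, -0.58], and Klre1 at -0.99 [-1.33, -0.65] and -1.16 [-1.47, -0.86]. Klra7, a Ly49 gene, was at -1.39 [-2.18, -0.62] and -2.07 [-2.94, -1.29], and since Ly49 and Klrb1 genes are near copies of one another, reads may be split among them. Klrb1 itself had 13 fragments against 67 and 21 against 120, -3.02 [-4.00, -2.15] and -2.63 [-3.38, -1.96], and Klrb1a was at -2.20 [-3.19, -1.30] and -2.15 [-2.86, -1.49].

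The innate-like list went the same way, with 4 of 9 genes lower, 0 higher and medians of -0.53 and -0.47. Fcer1g, the signalling chain of Fc and natural killer receptors, had 34 fragments against 82 in cecum (10.0 and 38.1 FPM) and 46 against 144 in tumor (12.3 and 41.6 FPM), -1.92 [-2.54, -1.33] and -1.76 [-2.28, -1.28]. Zbtb16 had 190 against 492 and 228 against 757 (56.1 and 228 FPM, and 60.7 and 219 FPM), -2.03 [-2.27, -1.78] and -1.85 [-2.07, -1.63]. Ikzf2, which encodes Helios, was at -1.49 [-1.67, -1.32] and -1.08 [-1.22, -0.95]. Il2rb, the beta chain of the receptors for interleukin-2 and interleukin-15, was the 1 lower of 12 cytokine receptor genes, whose medians were 0.08 and 0.08, at 196 against 317 FPM and 200 against 290, -0.70 [-0.85, -0.54] and -0.54 [-0.68, -0.40].

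Naive and memory genes were higher in 4 of 12 cases and lower in 0, with medians of 0.56 and 0.26. Satb1, a chromatin organiser of early T cells, was at 126 against 52.4 FPM and 124 against 72.0, 1.26 [0.96, 1.57] and 0.79 [0.56, 1.02]. Ccr7 was at 1.13 [0.70, 1.58] and 0.83 [0.49, 1.18], Il7r at 0.68 [0.24, 1.13] and 0.97 [0.58, 1.36] and Slamf6 at 0.87 [0.31, 1.45] and 0.58 [0.15, 1.02]. Il7r was thus higher in Cytotoxic CD8 than in PD1+ CD8 and CD8aa, and Ccr7 and Slamf6 lay between them. The inhibitory receptor genes Pdcd1, Havcr2 and Ctla4 were 3 of 15 past the threshold, with list medians of -0.05 and -0.04. Pdcd1 was at 92.7 against 61.3 FPM and 133 against 76.3, 0.60 [0.30, 0.90] and 0.80 [0.58, 1.02]. Havcr2 was at 0.82 [0.49, 1.15] and 1.08 [0.80, 1.36] and Ctla4 at 1.18 [0.81, 1.56] and 0.88 [0.61, 1.15]. Among the homing genes Ccr2, at 1.20 [0.63, 1.82] and 0.84 [0.36, 1.34], was the 1 of 10 that passed, with medians of 0.24 and 0.17. Of 9 residency genes, with medians of 0.00 and -0.03, Zfp683 (Hobit) at 0.93 [0.61, 1.25] and 0.57 [0.32, 0.82] and the gut homing receptor gene Ccr9 at 0.79 [0.28, 1.33] and 0.87 [0.43, 1.32] were higher, Ccr9 with a ratio of -0.016 in cecum within 1 kb of the gene ends. Itgae, the CD103 integrin chain that binds epithelium, stood at 0.00 [-0.18, 0.19] and -0.14 [-0.30, 0.01].

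Genes of gamma-delta and type 17 cells reached the minimum in 4 of 8 cases, and 3 were higher, with medians of 0.82 and 0.69. Maf had 134 fragments against 14 in cecum and 149 against 59 in tumor, 2.61 [1.81, 3.52] and 1.22 [0.77, 1.68]. Il23r, the interleukin-23 receptor gene, was at 0.57 [0.13, 1.02] and 0.75 [0.35, 1.16]. The epithelial gene Epcam was lower in Cytotoxic CD8, with 42 fragments against 41 and 48 against 66, -0.62 [-1.27, 0.04] and -0.58 [-1.14, -0.02]. The 10 epithelial genes summed to 188 FPM in Cytotoxic CD8 and 174 in CD8aa in cecum and to 180 and 189 in tumor, and their part in these ratios was not tested.

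**Figure D4:**
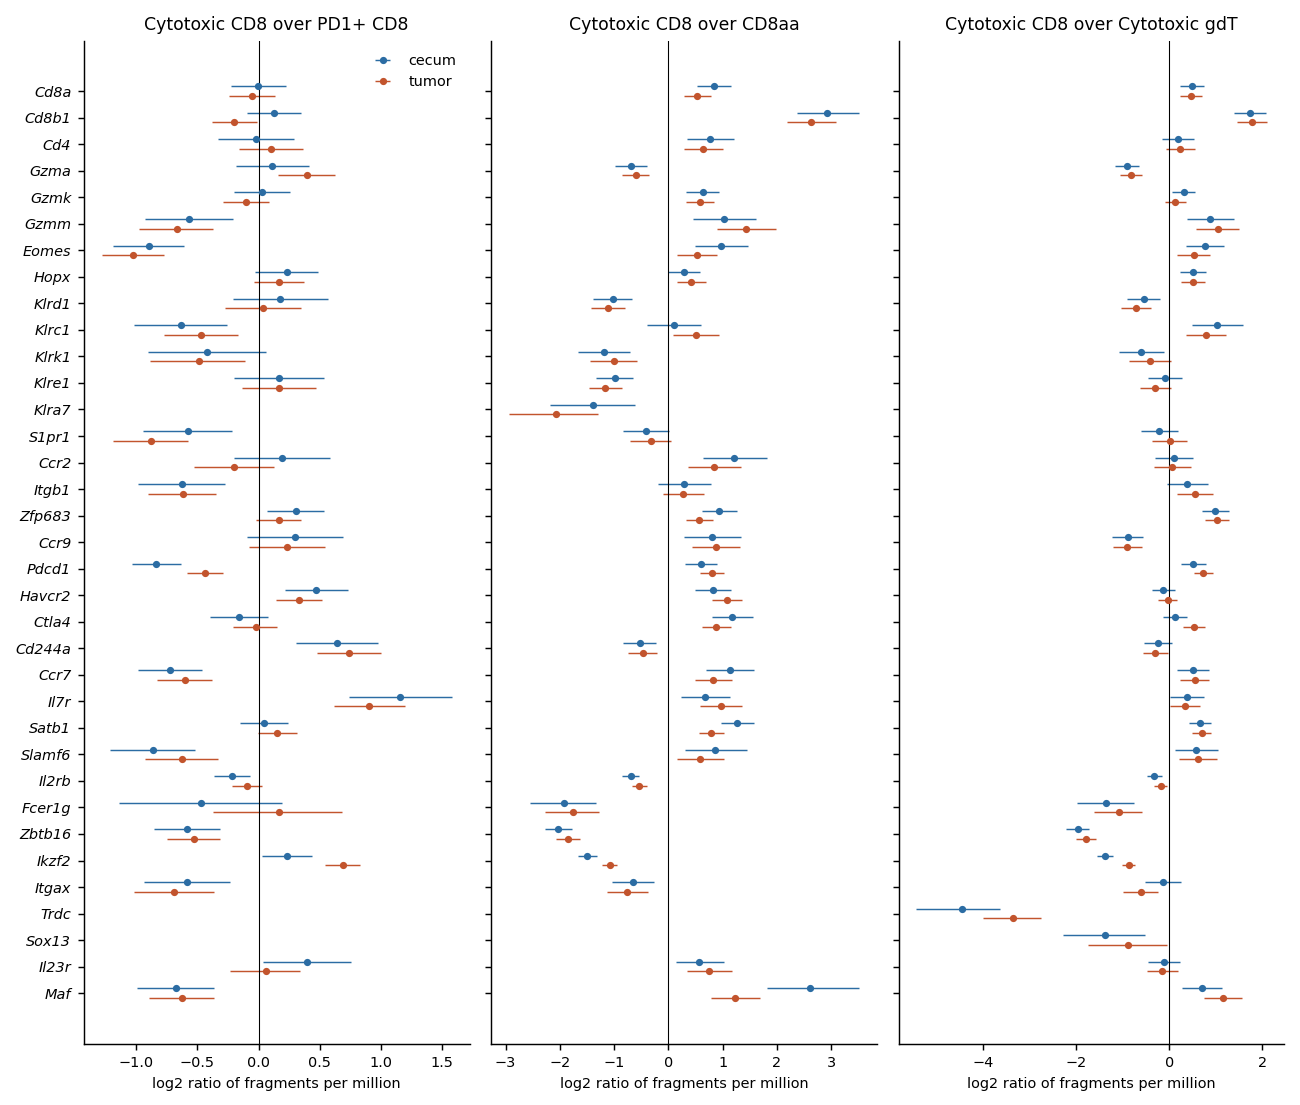
Log2 ratio of FPM (x axis) in Cytotoxic CD8 over PD1+ CD8 (left), CD8aa (middle) and Cytotoxic gdT (right) for listed genes past the threshold in at least 1 comparison, in cecum (blue) and tumor (orange), with exact 95% intervals for counting error. Eomes and Ccr7 lie left of 0 over PD1+ CD8 and right of it over the other labels, and Zbtb16 lies left of 0 in all 3 panels.

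By the same order, the highest gene over CD8aa was Cd6, a co-receptor of conventional T cells on chromosome 19 from 10789339 to 10830062. It had 798 fragments against 34 in cecum (236 and 15.8 FPM) and 666 against 71 in tumor (177 and 20.5 FPM), 3.90 [3.40, 4.44] and 3.11 [2.76, 3.49], from 277 and 272 nuclei. Slamf1, a receptor of the SLAM family, had 232 against 13 and 290 against 30, 3.504 [2.70, 4.44] and 3.16 [2.61, 3.75]. Cyp26b1, which breaks down retinoic acid, had 48 against 2 and 59 against 7, 3.93 [2.0004, 7.02] and 2.96 [1.83, 4.33]. Galnt9, an enzyme of O-glycosylation, was at 2.99 [2.14, 3.98] and 2.38 [1.88, 2.92]. The other 3, Ms4a6c, Tmie and Krt83, share their windows with neighbours (Ms4a4b and Gm8369, Als2cl and 2 serine protease genes, and Krt86). On the lower side Spry2, an inhibitor of receptor tyrosine kinase signals, had 51 fragments against 220 and 94 against 408, -2.76 [-3.23, -2.32] and -2.24 [-2.57, -1.91]. Clnk, an adaptor of immune receptors, had 33 against 198 and 72 against 350, -3.24 [-3.82, -2.70] and -2.40 [-2.79, -2.03]. The olfactory receptor gene Olfr1258 had 7 against 94 and 15 against 142, -4.40 [-5.75, -3.30] and -3.36 [-4.24, -2.59]. Thrombomodulin (Thbd), Atp1b1 and S1pr3 were the others besides Klrb1 and Klrb1a, each of these 3 with a window that overlaps that of a neighbouring gene.

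Of 8983 promoters, 136 were higher than in CD8aa (1.51%) and 308 lower (3.43%), with medians of -0.10 and -0.04. Cd5, an inhibitory co-receptor of conventional T cells, had 57 fragments against 6 and 56 against 6 at its promoter, 2.59 [1.38, 4.10] and 3.10 [1.89, 4.61]. The Pdcd1 promoter had 25 against 2 and 38 against 4, 2.99 [0.99, 6.11] and 3.13 [1.66, 5.08], so it was lower than in PD1+ CD8 and higher than in CD8aa. The Fcer1g promoter had 1 fragment against 21 and 1 against 22, -5.05 [-10.42, -2.41] and -4.58 [-9.94, -1.95]. Sh2d1b1, an adaptor of SLAM receptors in natural killer cells, had 2 against 25 and 1 against 41, -4.30 [-7.42, -2.29] and -5.48 [-10.81, -2.92]. Tnf, the tumor necrosis factor gene, was higher at 1.19 [0.35, 2.13] and 1.13 [0.32, 1.98].

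The third comparison, with Cytotoxic gdT, set the 2 receptor lineages among killer cells side by side. As the labels came from RNA of these nuclei, differences at Trdc and Cd8b1 are no independent check of them. Of 14001 genes 224 were higher in Cytotoxic CD8 (1.6%) and 207 lower (1.48%), with medians of -0.01 and 0.00, and the sign was the same in both libraries for 61.7% of genes. A window within 1 kb of the gene ends gave 85 and 109, a minimum of 200 fragments 62 and 84, and no minimum 583 and 422. Trdc had 12 fragments against 234 in cecum (3.54 and 77.8 FPM) and 25 against 285 in tumor (6.66 and 68.0 FPM), -4.46 [-5.43, -3.62] and -3.35 [-4.00, -2.76]. In the tumor its 25 fragments lay in 8 Cytotoxic CD8 nuclei, 6 of them in 1 nucleus. The gamma-delta factor gene Sox13 was lower too, at -1.37 [-2.28, -0.51] and -0.88 [-1.75, -0.05], and Maf was higher, at 0.70 [0.28, 1.14] and 1.15 [0.74, 1.57]. These were 1 higher and 2 lower of 7 genes of that list that reached the minimum, with medians of -0.10 and -0.14.

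Cd8b1 had 344 fragments against 92 and 334 against 109, 1.73 [1.40, 2.08] and 1.77 [1.46, 2.10], the 1 co-receptor gene of 8 past the threshold, with list medians of 0.06 and 0.08. Cd28, the main co-stimulatory receptor of conventional T cells, had 315 against 33 in cecum (93.0 and 10.97 FPM) and 338 against 54 in tumor (90.0 and 12.9 FPM), 3.08 [2.56, 3.65] and 2.81 [2.39, 3.25]. Cd2, an adhesion receptor, was at 1.76 [1.34, 2.19] and 2.09 [1.72, 2.47] and Slamf1 at 2.44 [1.94, 2.97] and 2.61 [2.18, 3.06]. Cd8b1 and Slamf1 were thus more open in Cytotoxic CD8 than in both unconventional labels.

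Gzma was lower than in Cytotoxic gdT, with 191 fragments against 318 and 233 against 459, -0.91 [-1.17, -0.64] and -0.82 [-1.05, -0.59]. Gzmm was higher, at 0.88 [0.39, 1.39] and 1.04 [0.59, 1.51], and the list of 12, of which 11 reached the minimum, had medians of 0.04 and -0.04. Eomes, at 0.77 [0.37, 1.19] and 0.53 [0.17, 0.88], and Hopx, at 0.51 [0.23, 0.80] and 0.51 [0.26, 0.77], were the 2 of 9 effector factor genes past the threshold, with list medians of 0.13 and -0.00. Of the naive and memory genes 4 of 12 were higher and 0 lower, with medians of 0.28 and 0.24, and of the innate-like genes 3 of 9 were lower and 0 higher, with medians of -0.23 and -0.29. Zbtb16 was at -1.97 [-2.21, -1.73] and -1.78 [-1.99, -1.56]. The 2 killer lectin receptors past the threshold, of 7 that reached the minimum and had medians of -0.24 and -0.29, went in opposite directions, Klrc1 higher at 1.03 [0.48, 1.59] and 0.79 [0.37, 1.21] and Klrd1 lower at -0.55 [-0.91, -0.19] and -0.71 [-1.03, -0.39]. The 2 of 9 residency genes that passed did so as well, with list medians of 0.02 and -0.09, Zfp683 at 0.99 [0.70, 1.28] and 1.02 [0.76, 1.28] and Ccr9 at -0.89 [-1.23, -0.55] and -0.90 [-1.22, -0.59]. Ccr9 in Cytotoxic CD8 thus stood above CD8aa and below Cytotoxic gdT. Pdcd1 was the 1 inhibitory gene of 15 past the threshold, higher at 0.52 [0.26, 0.79] and 0.73 [0.53, 0.94], with list medians of 0.02 and 0.05. Besides Cd28, Slamf1, Cd2 and Cd8b1, the 8 highest genes were Tmie and Als2cl, whose windows overlap, Gprin3 and Galnt9. The lowest gene was Cyp2j9, a cytochrome P450 gene whose window overlaps that of Cyp2j6, with 5 fragments against 76 and 5 against 135, -4.10 [-5.76, -2.81] and -4.60 [-6.24, -3.34]. Cyp2j6 itself, Trdc, Olfr1258, Clnk, Adgra3 and the pair Gm36722 and Tshz3, whose windows overlap, made up the rest of the 8 lowest.

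The genome was also cut into tiles of 500 bp, and tiles whose middle lies at least 5 kb from both ends of every gene were called distal. A tile was counted as higher or lower at a log2 ratio of at least 1 with 1 FPM added, in the same direction in both libraries, with at least 20 fragments in each. Over PD1+ CD8, 289 of 23350 distal tiles were higher (1.24%) and 443 lower (1.9%). Over CD8aa, 392 of 17688 were higher (2.22%) and 725 lower (4.1%), and over Cytotoxic gdT 226 of 20373 were higher (1.11%) and 408 lower (2.0%). Without the nuclei above 3 times the median the counts were 187 and 268, 230 and 476, and 128 and 274, and with a minimum of 50 fragments they were 91 and 96, 63 and 171, and 41 and 91. Distal tiles were a larger share of the tiles past the threshold than of those tested. Tiles were not matched for fragments, so distance from genes and depth of the tile cannot be told apart here. They made up 31.4% of tested tiles over PD1+ CD8 but 64.7% of the higher and 60.3% of the lower ones, and 29.3% over CD8aa but 58.7% and 58.1%. Of the distal tiles past the threshold 59.0% over PD1+ CD8, 69.2% over CD8aa and 68.9% over Cytotoxic gdT lay within the span of a coding gene. The same share was not computed for all tested distal tiles, so these shares have no reference. No genome sequence was at hand for these tiles, so they are given by position in mm10 and by the nearest gene.

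Over PD1+ CD8 the highest distal tiles, ordered as the genes were, lay at chr13:12275001-12275500 inside Actn2, which encodes an actinin, with 40 fragments against 3 and 37 against 4, and at chr2:152321501-152322000 inside Rbck1, a subunit of a ubiquitin ligase, with 48 against 6 and 51 against 8. The log2 ratios were 3.83 [2.17, 6.16] and 4.49 [3.02, 6.44] at the Actn2 tile and 3.09 [1.86, 4.60] and 3.96 [2.87, 5.24] at the Rbck1 tile. The lowest were inside Pbx3, a homeobox gene, at chr2:34198501-34199000, with 1 fragment against 27 and 2 against 105, -4.67 [-10.02, -2.07] and -4.43 [-7.49, -2.54], and inside Dagla, with 1 against 26 and 2 against 153. A tile 44.8 kb from Nrp1, at chr8:128550001-128550500, had 3 against 32 and 2 against 140, -3.33 [-5.68, -1.65] and -4.84 [-7.90, -2.96]. It was named because it was among the lowest tiles. The Nrp1 gene and its promoter, which share fragments, were lower too. By nearest gene, 7 of 13 distal tiles of Plxnc1 were lower, as were 5 of 24 of S1pr1 and 5 of 25 of the chemokine receptor gene Cxcr4. On the higher side 4 of 4 tiles nearest to Adtrp and 4 of 6 nearest to Furin, a protease gene, passed.

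Over CD8aa 8 of 9 distal tiles nearest to Cd6 were higher, as were 13 of 41 nearest to Bcl11b, the factor of T cell commitment, 13 of 19 nearest to St8sia1, a sialyltransferase gene, and 7 of 8 nearest to Fam169b. The Cd6 tile at chr19:10813001-10813500 had 46 fragments against 0 in cecum and 44 against 1 in tumor. With the 0 set to a floor of 3 fragments the log2 ratio in cecum was 3.29, its exact interval had a lower limit of 2.93 and no upper limit, and in tumor the ratio was 5.34 [2.79, 10.68]. The Fam169b tile at chr7:68284001-68284500 had 47 against 1 in both libraries, 4.90 [2.35, 10.24] and 5.44 [2.89, 10.77], and the Fam169b promoter had 46 against 0 and 53 against 3. The St8sia1 tile at chr6:142917501-142918000 had 84 against 4 and 69 against 1, 3.74 [2.33, 5.65] and 5.99 [3.46, 11.31]. On the lower side a tile 5.2 kb from Spry2, at chr14:105886501-105887000, had 3 against 47 and 4 against 99, -4.62 [-6.95, -2.99] and -4.75 [-6.65, -3.35]. A tile inside Ptpn11, which encodes the phosphatase SHP2, had 0 against 20 and 0 against 28, and a tile inside Klrb1 had 3 against 31 and 2 against 55. Of 11 tiles nearest to Plcg2, a phospholipase of immune receptor signals, 7 were lower. Over Cytotoxic gdT 6 of 12 Plcg2 tiles were lower and 4 of 9 Cd6 tiles were higher, and a tile inside Cd28 at chr1:60758001-60758500 had 35 against 0 and 25 against 1.

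Tiles within 50 kb of a gene, some of them in its own window, were counted by sign alone in both libraries. The share of all tested tiles with the same sign in both libraries was not computed, so these counts have no reference. Around Gzma 13 of 20 were higher than in PD1+ CD8 and 0 lower, and 0 were past the threshold of 1. Over CD8aa 13 of 18 were lower and 3 higher, and over Cytotoxic gdT 16 of 19 were lower and 2 higher. In both of the latter comparisons 1 tile was past the threshold, on the lower side. Around Prf1 11 of 12 were lower than in PD1+ CD8 and 0 higher, and 0 were past the threshold. Around Tox 11 of 21 were lower and 4 higher, with chr4:6844001-6844500 inside the gene at 8 fragments against 31 and 12 against 92, -1.87 [-3.20, -0.71] and -1.65 [-2.66, -0.78]. Around Tbx21 14 of 56 were higher and 24 lower, although the whole window was slightly higher. Single tiles were mostly below the threshold of 1.

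Genes were also counted by whether Cytotoxic CD8 was the highest label. Of 14479 genes with enough fragments, 434 were highest in it among the labels with at least 50 cells in cecum, 378 in tumor and 52 in both. No such count of genes or tiles was made for the other labels, so these counts have no reference. Labels with few nuclei hold few fragments, and the ranking did not adjust for that. The margins over the next label were small. For Snx29, which encodes a sorting nexin, Cytotoxic CD8 stood at 400.2 and 421.1 FPM, above the next label by 0.13 [0.02, 0.24] and 0.15 [0.05, 0.25], and it was the 1 gene of the 10 with the widest margins whose intervals both lay above 0. Themis, a regulator of T cell receptor signals, stood at 169 and 159 FPM, above the next label by 0.19 and 0.14, and Adgrg1, the receptor GPR56 of cytotoxic lymphocytes, at 117 and 138 FPM, above by 0.10 and 0.34. Col6a3 led by 0.38 and 0.42. The other 6 of the 10 were Sbspon, Dnlz, Acat3, Card9, Mcmbp and Slc5a11, and the windows of Dnlz and Card9 overlap. Of 39265 tiles 230 were highest in Cytotoxic CD8 in both libraries, 112 of them distal. The widest margin was at chr12:108016001-108016500, which lies 12.1 kb from an end of Bcl11b, with 45 and 38 fragments (13.3 and 10.1 FPM). It stood above CD8aa, next in cecum, by 0.93 [0.06, 1.88] and above Cytotoxic gdT, next in tumor, by 0.95 [0.15, 1.78].

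The last comparison set the tumor against the cecum within Cytotoxic CD8. Of 14338 genes 410 were higher in tumor (2.86%) and 245 lower (1.71%), with a median of 0.00. These counts moved with the settings, to 1080 and 717 with the mean over nuclei, 223 and 118 with a pseudocount of 5 FPM and 85 and 22 with a minimum of 200 fragments. This is a comparison of 2 libraries, and tissue and library cannot be told apart. The share past the threshold was 4.57%, against 3.61% in PD1+ CD8, 4.21% in CD8aa and 3.44% in Cytotoxic gdT, which hold different numbers of fragments. None of the defining genes of the label was past the threshold. Tbx21 was at -0.01 [-0.18, 0.17], Cd8a at -0.14 and Gzma at 0.14, and Cd8b1 stood at 102 FPM in cecum and 89.0 in tumor. Of other effector genes, Eomes was at -0.09, Prf1 at 0.14 and Tox at 0.02. Gzmb was lower in tumor below the threshold, at -0.43 [-0.76, -0.10].

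Of the listed genes, Pdcd1 (1 of 15 inhibitory genes, list median 0.04), Cx3cr1 (1 of 10 homing genes, -0.06), Ikzf2 and Klrb1b (2 of 9 innate-like genes, 0.11) and Il1r1 (1 of 5 gamma-delta and type 17 genes that reached the minimum, 0.00) were higher in tumor. None of the co-receptor, killing, cytokine, effector factor, killer lectin, residency, naive and memory or cytokine receptor genes was past the threshold. Over all genes 2.86% were higher in tumor and 1.71% lower, and the lists were not tested against these shares. Pdcd1 had 499 fragments in tumor and 314 in cecum (133 and 92.7 FPM), 0.52 [0.31, 0.73], and 0.12 in PD1+ CD8, 0.32 in CD8aa and 0.31 in Cytotoxic gdT. Ikzf2 had 668 and 417 (178 and 123 FPM), 0.53 [0.35, 0.71], and 0.07, 0.12 and 0.03 in those labels. Cx3cr1, the fractalkine receptor gene of circulating effector cells, had 219 and 127 (58.3 and 37.5 FPM), 0.64 [0.32, 0.97], and its sign was the same in 14 of 15 other labels. Klrb1b was at 0.93 [0.33, 1.56] with 74 and 35 fragments and Il1r1, an interleukin-1 receptor gene, at 0.70 [0.08, 1.34]. Of 5 B cell genes that reached the minimum 2 were lower in tumor, with a list median of -0.24, among them Cd79b at -0.95 [-1.64, -0.29], and the summed B cell genes stood at 148 FPM there and 155 in cecum.

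The 8 highest genes by the interval bound nearest to 0 were C2cd4b, Itgb8, Glis1, Ccdc3, Nrn1, Lrrn2, Ablim3 and Sema6d. These and the 8 lowest were chosen by their ratios in Cytotoxic CD8, so smaller ratios in other labels follow in part from the choice. Itgb8, an integrin chain that activates TGF-beta, had 84 fragments in 56 tumor nuclei and 17 in 14 cecum nuclei (22.4 and 5.02 FPM), 2.16 [1.39, 3.002], and stood at 0.11 in PD1+ CD8, 0.11 in CD8aa and -0.58 in Cytotoxic gdT. With 1 FPM added, it was above 0 in 11 of the 15 other labels compared, up to 2.31. C2cd4b had 86 and 16, 2.28 [1.497, 3.15], and stood at 0.01, 0.70 and -0.02 in those labels, and with 1 FPM added above 0 in 11 of the 15, up to 1.96. Glis1, a zinc finger factor, had 151 and 41, 1.73 [1.23, 2.27], and stood at 0.27, 0.81 and 0.04, and with 1 FPM added above 0 in 13 of the 15, up to 0.90. Its window overlaps that of Gm46866. Sema6d, a semaphorin gene, was higher in tumor in PD1+ CD8 as well, at 1.08 there and 1.18 [0.86, 1.51] in Cytotoxic CD8. Ccdc3 rested on 1 nucleus, which held 51 of its 68 tumor fragments. Without the nucleus richest in the gene in each library, an alternative chosen after seeing the data, Ccdc3 fell to 0.24 [-0.89, 1.40], while C2cd4b stayed at 2.28 and Itgb8 at 2.35.

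The 8 lowest were Trp63, Plb1, Fam171a1, Limch1, Spock1, Shroom3, Adra1b and Hs6st3. Plb1, a phospholipase gene, had 52 fragments in tumor and 122 in cecum, of which 63 were in 1 nucleus, and went from -1.38 [-1.88, -0.90] to -0.42 [-0.99, 0.16] without the richest nuclei. Fam171a1 had 22 of 42 in 1 nucleus and went to -0.89 [-2.05, 0.22]. Trp63, a gene of the p53 family, had 14 of 42 in 1 nucleus and stood at -2.08 [-3.19, -1.10], and at -1.63 [-2.84, -0.55] without it. Spock1, a proteoglycan gene, did not lean on 1 nucleus and stood at -1.66 [-2.66, -0.75] and at -1.77 without the richest. Without the richest nuclei Limch1 stood at -1.29 [-2.27, -0.36], Shroom3 at -0.996 [-1.76, -0.26] and Adra1b at -0.84 [-1.60, -0.10], so that 2 of the 8, Plb1 and Fam171a1, had intervals that reached 0. Hs6st3, a heparan sulfate sulfotransferase gene, stood at -1.03 [-1.55, -0.52] and -0.95.

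**Figure D5:**
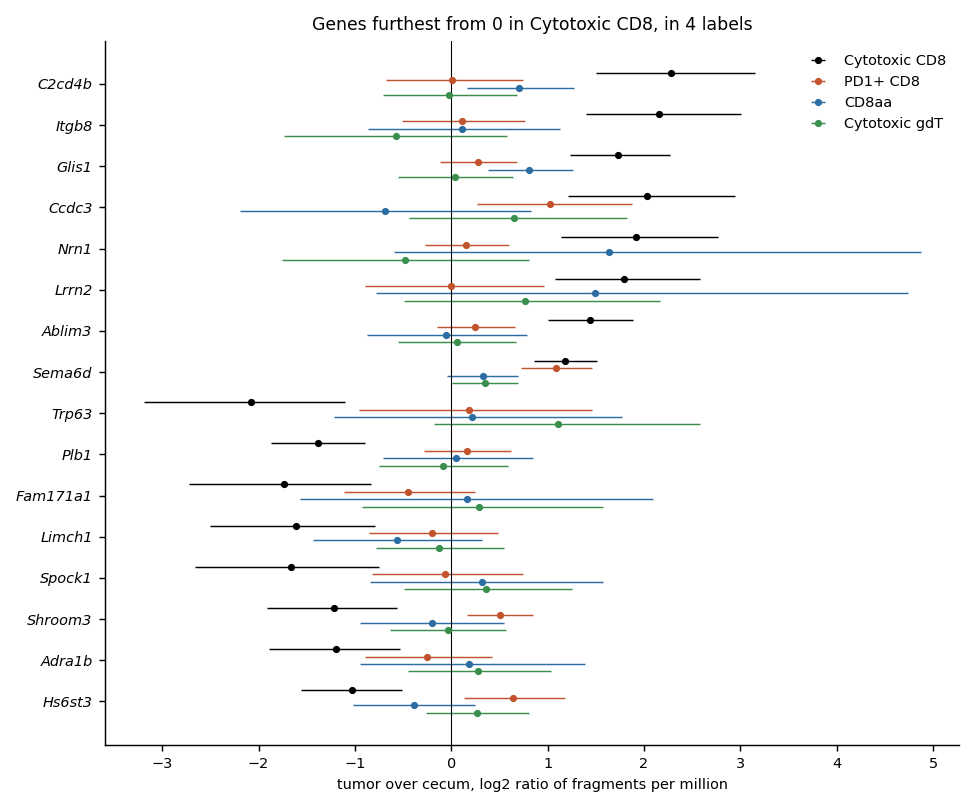
Log2 ratio of FPM, tumor over cecum (x axis), of the 8 highest and 8 lowest genes in Cytotoxic CD8 (black) and in PD1+ CD8 (orange), CD8aa (blue) and Cytotoxic gdT (green), with exact 95% intervals for counting error and all nuclei included. The Cytotoxic CD8 points run from 2.28 at C2cd4b to -2.08 at Trp63, and most points of the other labels lie nearer to 0. The genes were chosen by their ratios in Cytotoxic CD8, so this follows in part from the choice.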

How the data were processed

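Nuclei of T cells sorted from cecum and tumor were profiled by 10x multiome in 1 library per tissue, and per the labels the authors used Cell Ranger ARC 2.0.0 and mm10. The deposited fragment files give, for each fragment, its position, barcode and the count of read pairs behind it, and the deposited table gives each barcode's label and library (other units are not used). The authors' filters are those of their methods on mitochondrial reads, genes, transcripts, fragments and transcription start site enrichment, and labels are theirs, from clusters of the RNA counts, which were not analysed here. The fragments of a label were summed in each library over 21889 gene windows (RefSeq GRCm38.p6, 5 kb flank) and over tiles of 500 bp. A fragment was counted once in each window or tile that held its first or last base. Ratios carry exact conditional intervals, levels exact Poisson intervals and shares Clopper-Pearson intervals, all at 95% and for counting error only. Floors are 3 fragments. Doublets were not called here. The rule for names took up to 4 members of each of 16 lists, the 8 highest and 8 lowest genes of each comparison, the 10 genes with the widest margins and the furthest tiles, of which some are described. Members and lists were chosen with earlier results of these data known. The scripts were tested on simulated data. Python 3.11.15, numpy 2.4.6, pandas 2.3.3, scipy 1.17.1 and numba 0.67.0 were used. Some genes are not reported here.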

Additional observations from a re-analysis of the deposited data

Results flagged for a closer look

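In 6 cases a gene's intervals lay on opposite sides of 0 in 2 libraries or 2 labels, and none of these differences was tested. Fasl, which encodes Fas ligand, was higher in Cytotoxic CD8 than in Cytotoxic gdT in the cecum, at a log2 ratio of 0.40, and lower in the tumor, at -0.29. The same fragments give Fasl tumor over cecum ratios of -0.33 in Cytotoxic CD8 and 0.36 in Cytotoxic gdT. Shroom3, an actin regulator, was lower in the tumor in Cytotoxic CD8, at -1.22, and higher in PD1+ CD8, at 0.50, and 16 of its 61 cecum fragments in Cytotoxic CD8 lay in 1 nucleus. Hs6st3 stood at -1.03 in Cytotoxic CD8 and 0.64 in PD1+ CD8. Bach2, a repressor of effector genes, stood at 0.11 in Cytotoxic CD8 and -0.15 in Cytotoxic gdT. Foxp1, a factor of quiescent T cells, stood at -0.25 in Cytotoxic CD8 and 0.21 in CD8aa.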

How the results depend on the processing

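No paired analysis was possible because each tissue has 1 library. Counts are given as higher and lower and, unless named otherwise, over PD1+ CD8, CD8aa and Cytotoxic gdT in turn. A window within 1 kb of the gene ends gave 76 and 122, 103 higher over CD8aa, and 85 and 109, and 123 lower in the tumor. Without a minimum there were 271 and 674, 977 and 539, and 583 and 422. A minimum of 200 fragments gave 73 and 133, 116 and 157, and 62 and 84, and 85 and 22 for tumor over cecum. A threshold of 1 gave 16 and 41, 71 and 67, and 40 and 41. The window around the start site, chosen after seeing the data, gave 83 and 177, 136 higher over CD8aa, and 95 and 122. Distal tiles numbered 91 and 96, 63 and 171, and 41 and 91 with a minimum of 50, and 187 and 268, 230 and 476, and 128 higher over Cytotoxic gdT without the nuclei far above the median. A pseudocount of 5 gave 142 higher over Cytotoxic gdT, and 223 and 118 for tumor over cecum. The mean over nuclei gave 1080 and 717 for tumor over cecum. The share among CD8 labels was 32.3% and 20.7%. Of the ratios of named and listed genes, the window at gene ends moved 354 beyond their interval, left 542 within it and turned 3, Itgax over PD1+ CD8 in the cecum to 0.21, Cd8a over CD8aa in the tumor to -0.32 and Ccr9 over CD8aa in the cecum to -0.016, and the cause was not tested. Without the nucleus richest in each gene, also chosen after seeing the data, counts were 139 and 387, 378 and 327, 213 and 202, and 424 and 178 for tumor over cecum, and 940 of the ratios moved by less than their interval while those of Ccdc3 and Plb1 moved further. Depth limits single tiles and genes below about 50 fragments, where intervals span more than 1 on the log2 scale.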
